A study of Homo sapiens with 9 samples.

Results

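The genes described here encode integrin chains and laminin chains, and they were chosen by symbol alone. Every row of the count table whose symbol named an integrin alpha chain (ITGA), an integrin beta chain (ITGB1 to ITGB8) or a laminin chain (LAMA, LAMB or LAMC) was taken. The rule uses no expression value, but the gene families were picked with earlier results of these data known. The rule gave 38 genes of the 22605 features counted, made up of 18 alpha integrins, 8 beta integrins and 12 laminins. RNA was sequenced from A375, an established human melanoma line, so all results are of 1 cell line. Cells of the control group were untreated, and cells of the other groups received 100 µM or 200 µM of Salvianolic acid B (SalB), a plant phenolic acid of Salvia miltiorrhiza, over 48 h. All groups were grown in the same serum-containing DMEM, and the sources used here do not say whether the control received a vehicle. Each group held 3 libraries, described in the labels as biological replicates, and all 9 libraries carry the same batch label.

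Integrins are receptors that span the plasma membrane as a pair of an alpha and a beta chain, bind matrix proteins or other cells outside, and connect through adaptor proteins to actin inside. Laminins are secreted trimers of an alpha, a beta and a gamma chain that polymerise into the scaffold of basement membranes and are themselves ligands of several integrins. In melanoma the ITGAV and ITGB3 pair is a classic marker of the change from growth within the epidermis to growth in the dermis. RNA levels say nothing of which chains were paired at the cell surface.

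The libraries held 27348621 to 30629685 counts, and 13968 genes passed the filter on low counts and were tested with the quasi-likelihood test of edgeR. The label of a melanoma line was set against 13 melanocyte and melanoma markers, which summed to 1220 to 1320 CPM in control, 1600 to 1680 CPM at 100 µM and 1320 to 1600 CPM at 200 µM. SOX10 lay at 323 to 361 CPM in control, 523 to 535 CPM at 100 µM and 411 to 552 CPM at 200 µM. MITF lay at 27 to 31.5 CPM in control, 16.6 to 19.1 CPM at 100 µM and 15.5 to 23.6 CPM at 200 µM. S100B (39.5 to 43.7, 60.8 to 64.0 and 16.7 to 21.3 CPM in the same order) and PRAME (77.4 to 84.2, 102 to 122 and 48.1 to 59.5 CPM) were highest at 100 µM and lowest at 200 µM. S100A1, at 4.58 to 6.18, 3.02 to 3.47 and 5.19 to 8.34 CPM, was instead lowest at 100 µM. BRAF was lowest there too, at 38.3 to 42.2, 35.5 to 37.9 and 39.6 to 56.0 CPM. CSPG4 had 271 to 316, 349 to 381 and 282 to 559 CPM. MCAM had 425 to 444, 497 to 521 and 321 to 449 CPM. Both were above control at 100 µM and overlapped control at 200 µM. The pigment genes PMEL, MLANA, TYR, TYRP1 and DCT reached at most 1.55 CPM. Of 11 leukocyte and platelet markers, CD3E, PF4, PPBP and GP9 had no count in any library, and the 11 together summed to 0.381 to 0.689 CPM in control, 0.357 to 0.803 CPM at 100 µM and 1.51 to 1.70 CPM at 200 µM. Of 9 epithelial markers, KRT5 and GRHL2 had no count, and the sum, mostly KRT8 and KRT18, was 250 to 258 CPM in control, 316 to 349 CPM at 100 µM and 315 to 437 CPM at 200 µM. The 7 endothelial markers summed to 11.3 to 13 CPM in control, 4.46 to 4.73 CPM at 100 µM and 10.8 to 12.5 CPM at 200 µM, and their part in the results below was not tested. That sum was mostly KDR, at 9.39 to 11.2, 2.43 to 3.05 and 7.37 to 9.21 CPM in the same order. PECAM1, at 0.709 to 0.93, 0.0973 to 0.583 and 2.6 to 2.94 CPM, was highest at 200 µM. Replicate 3 at 200 µM stood apart. Its mitochondrial mRNA took 4.69% of counts, against 1.85% and 1.81% in the other 200 µM libraries. The gap between GC-rich and GC-poor transcripts, on the log2 scale and relative to the control mean, was -0.158 to 0.163 in control, 0.694 to 0.933 at 100 µM and 0.475, 0.964 and -0.305 in the 3 libraries at 200 µM. Counts below are therefore also given after a correction for GC content and without 200 µM replicate 3.

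Of the 38 genes, 30 passed the filter, 19 integrins and 11 laminins, and a gene counts as called when its adjusted p was under 0.05 over all genes tested. At 100 µM against control, 12 members were higher and 9 lower. The background was high: 18.9% of all genes tested were called higher, 18.2% lower and 37.1% in either direction. At 200 µM against control, 9 were higher and 9 lower, where 19.8% of all genes were called higher, 17.5% lower and 37.3% in either direction. At 200 µM against 100 µM, 8 were higher and 13 lower, where 22.4% of all genes were higher, 21.9% lower and 44.4% called in either direction. The 12 higher at 100 µM and the 13 lower between the doses include LAMC3. That gene passed the filter only through its 100 µM libraries, so these 2 calls are no test of it. With GC correction the counts of higher and lower members were 11 and 10, 11 and 13, and 10 and 13 in the same 3 comparisons, and without 200 µM replicate 3 they were 13 and 9, 10 and 10, and 10 and 13. In bulk RNA, fewer cells expressing a gene and less of its RNA per cell cannot be told apart.

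Against control, 6 members were called in opposite directions at the 2 doses and 8 in the same direction. The share of all tested genes called in opposite directions, or in the same direction, at both doses was not computed. These counts therefore describe the members only and do not say whether such patterns are more frequent among them than among other genes. Both doses were compared with the same 3 control libraries, so their values are not independent of each other. ITGA3, ITGA5, ITGB2, ITGB4 and LAMB2 were called higher at both doses, and ITGA1, ITGAE and ITGB1 lower at both. ITGA2, ITGA11 and ITGB8 were lower at 100 µM and higher at 200 µM, and ITGA4, ITGA9 and LAMC1 were higher at 100 µM and lower at 200 µM. Of the 11 laminins tested, 6 were higher and 1 lower at 100 µM (median log2 fold change 0.68, against -0.01 over all genes). These 6 include LAMC3, which passed the filter on low counts only through its 100 µM libraries. At 200 µM, 2 were higher and 2 lower (median -0.16, against 0.00 over all genes). At 200 µM against 100 µM, 2 laminins were higher and 6 lower (median -0.30, against -0.01). LAMC3 is among these 6 lower as well. Of the 19 integrins, 6 were higher and 8 lower at 100 µM (median -0.03), and 7 were higher and 7 lower at 200 µM (median 0.12).

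**Figure D1:**
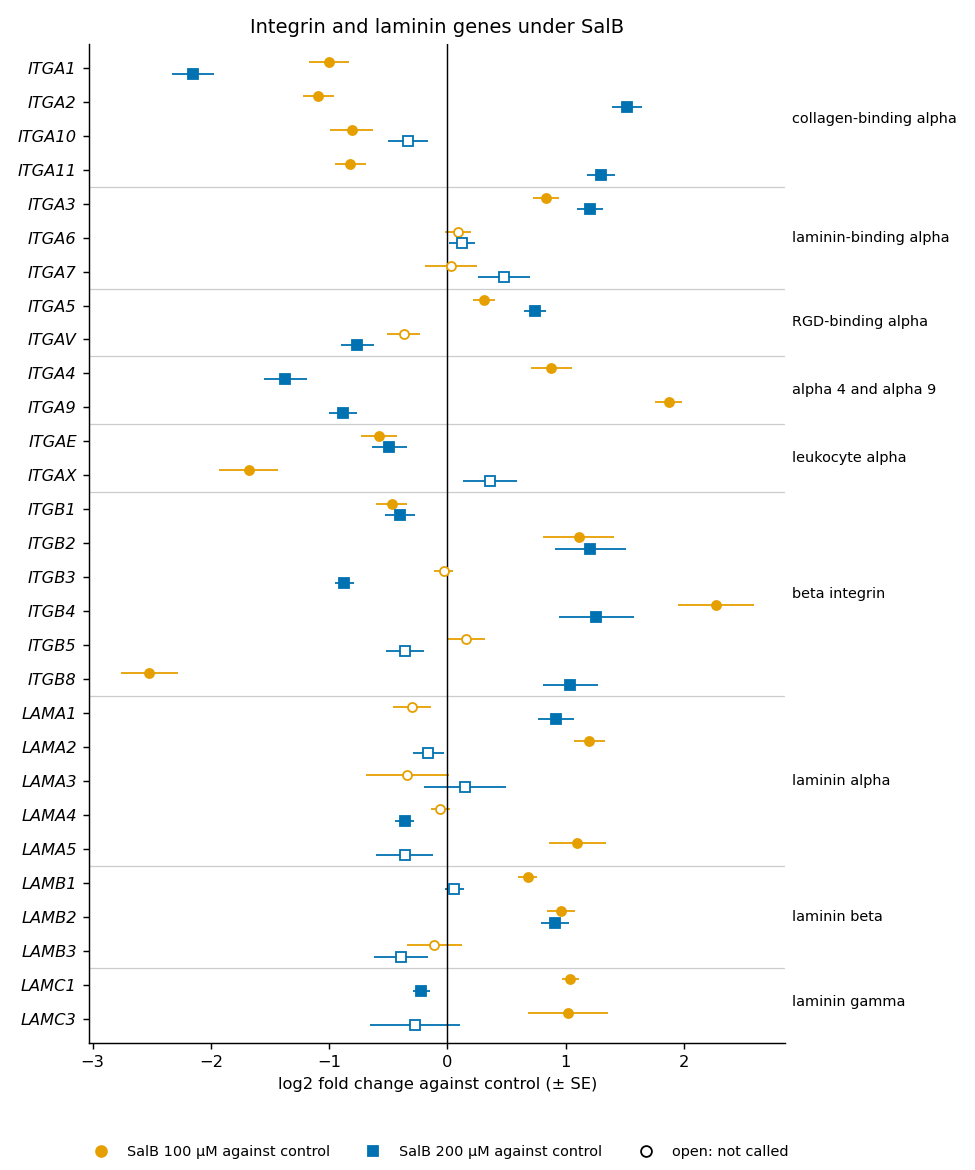
Log2 fold change against control with its standard error for 29 of the 30 tested members, grouped by role; circles are 100 µM, squares 200 µM, and open symbols were not called at an adjusted p of 0.05. ITGA2, ITGA11 and ITGB8 lie left of 0 at 100 µM and right of it at 200 µM, and ITGA4, ITGA9 and LAMC1 do the opposite.

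The 4 collagen-binding alpha chains, which all pair with ITGB1, all fell at 100 µM and differed in direction at 200 µM. *ITGA1* (ENSG00000213949, chr5:52787896-52959210, plus strand of GRCh38, the build of all positions here), which favours basement membrane collagen, had 355, 365 and 336 CPM in control, 166, 182 and 181 CPM at 100 µM and 77.3, 58.3 and 102 CPM at 200 µM. Every library at 100 µM lay below control and every library at 200 µM lay lower still. The log2 fold change (± SE) was -1.0 ± 0.17 (edgeR adjusted p = 0.002) at 100 µM and -2.15 ± 0.18 (edgeR adjusted p = 3.3e-05) at 200 µM, a 4.44-fold decrease, and -1.15 ± 0.17 for 200 µM against 100 µM. With GC correction the value at 100 µM was -0.66 and was still called. *ITGA2* (ENSG00000164171, chr5:52989326-53094779, plus strand), which favours fibrillar collagen, had 61.5, 61.7 and 57.8 CPM in control, 28.5, 26.3 and 30.3 CPM at 100 µM and 168, 143 and 209 CPM at 200 µM. Its 100 µM libraries lay below all control libraries and its 200 µM libraries above them. The log2 fold change was -1.09 ± 0.13 (edgeR adjusted p = 0.00036) at 100 µM and 1.52 ± 0.13 (edgeR adjusted p = 4.7e-05) at 200 µM, and 200 µM exceeded 100 µM 6.11-fold.

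*ITGA11*, a receptor for fibrillar collagen on mesenchymal cells, had the same directions as ITGA2 at a lower level per length, 0.790 ± 0.0438 RPKM in control. It had 9.08, 8.13 and 8.54 CPM in control, 5.27, 4.90 and 4.44 CPM at 100 µM and 18.2, 22.2 and 22.8 CPM at 200 µM, with no overlap between any pair of groups, and its log2 fold change was -0.82 ± 0.13 (edgeR adjusted p = 0.0013) at 100 µM and 1.30 ± 0.12 (edgeR adjusted p = 7.9e-05) at 200 µM. *ITGA10*, best known from cartilage, had 38.7, 41.9 and 43.5 CPM in control, 24.0, 24.2 and 22.4 CPM at 100 µM and 34.9, 40.6 and 23.2 CPM at 200 µM. It fell at 100 µM (-0.81 ± 0.18, edgeR adjusted p = 0.0066), where no library overlapped control. At 200 µM the groups overlapped and it was not called (-0.33 ± 0.17, edgeR adjusted p = 0.17), but it was called with GC correction (-0.41) and without 200 µM replicate 2 (-0.51). Without 200 µM replicate 3, the library that stood apart, the 200 µM value was -0.12 and was not called. Summed per length, the 4 genes had 33.9 ± 0.895 RPKM in control, 17.3 ± 0.374 RPKM at 100 µM and 33.3 ± 4.08 RPKM at 200 µM (mean ± SD, n = 3). RPKM is CPM divided by the exon length in kilobases. The sum at 200 µM overlapped control, but its make-up differed: *ITGA1* gave 4.27 ± 1.19 RPKM and *ITGA2* 21.9 ± 4.23 RPKM at 200 µM, against 19.0 ± 0.810 RPKM of *ITGA1* and 7.63 ± 0.275 RPKM of *ITGA2* in control.

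ITGA1 and ITGA2 are neighbours on chromosome 5, on the same strand with 30.1 kb between them. Their promoters are shown because ITGA1 had the largest called decrease and ITGA2 the largest called increase of any member at 200 µM. Each is the 250 bases before the gene's RefSeq start on GRCh38.p14, 5′ to 3′ on the plus strand, at chr5:52787666-52787915 for ITGA1 and chr5:52989102-52989351 for ITGA2. Both RefSeq starts lie downstream of the gene starts given above, so the last bases of each window lie inside the gene as given. Capitals mark the SP1 motif GGGCGG on either strand.
ITGA1: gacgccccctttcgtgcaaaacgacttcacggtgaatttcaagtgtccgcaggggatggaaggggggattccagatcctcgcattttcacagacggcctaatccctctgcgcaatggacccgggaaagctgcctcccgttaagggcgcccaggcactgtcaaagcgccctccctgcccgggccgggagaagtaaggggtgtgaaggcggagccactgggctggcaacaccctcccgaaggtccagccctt
ITGA2: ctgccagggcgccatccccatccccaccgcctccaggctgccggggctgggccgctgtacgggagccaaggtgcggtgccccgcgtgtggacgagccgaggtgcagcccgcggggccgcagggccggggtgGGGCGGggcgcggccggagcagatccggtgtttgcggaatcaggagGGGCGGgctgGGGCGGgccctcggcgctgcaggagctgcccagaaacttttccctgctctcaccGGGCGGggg
The windows were also searched on both strands for AP-1 (TGANTCA), TEAD (GGAATG) and NF-kB (GGG, any 2 bases, then TTTCC). The ITGA2 window held 4 SP1 motifs and none of the others, and the ITGA1 window held none of the 4 motifs. Among 35116 promoter windows of the same length, SP1 was in 42.6%, AP-1 in 6.57%, NF-kB in 1.73% and TEAD in 11.9%. Of the members, 26 genes had 33 windows, with SP1 in 17, TEAD in 4, AP-1 in 2 and NF-kB in 0. A match describes the letters only, and its absence says nothing of the factor.

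Of the 3 laminin-binding alpha chains, ITGA3 rose at both doses and ITGA6 and ITGA7 were not called. *ITGA6*, the alpha partner of ITGB1 and of ITGB4, averaged 409 ± 15.0, 436 ± 16.8 and 444 ± 72.4 CPM (mean ± SD, n = 3) in control, at 100 µM and at 200 µM (log2 fold change 0.09 ± 0.11 at 100 µM and 0.12 ± 0.11 at 200 µM). It made up 34.4% ± 0.448 of the summed alpha integrin RPKM in control, 34.3% ± 0.789 at 100 µM and 34.3% ± 4.07 at 200 µM. *ITGA3* (ENSG00000005884, chr17:50055968-50090481, plus strand), the other main epithelial laminin receptor, had 156, 151 and 174 CPM in control, 303, 275 and 275 CPM at 100 µM and 359, 432 and 324 CPM at 200 µM. The 3 groups did not overlap, in the order control, 100 µM, 200 µM. Against control the log2 fold change was 0.83 ± 0.11 (edgeR adjusted p = 0.00061) at 100 µM and 1.21 ± 0.11 (edgeR adjusted p = 6.6e-05) at 200 µM, and the GC-corrected value at 100 µM was 0.48. The step between doses, 0.39 ± 0.11 (edgeR adjusted p = 0.02) for 200 µM against 100 µM, was 0.63 with GC correction. It was not called under total-count scaling (0.30) or without 100 µM replicate 2 (0.35), 100 µM replicate 3 (0.35) or 200 µM replicate 2 (0.24). *ITGA7*, the muscle laminin receptor, was low at 9.48 ± 0.700, 9.69 ± 0.375 and 13.2 ± 4.33 CPM in the same order and was called in no comparison, with overlapping groups.

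Of the alpha chains that recognise the RGD sequence in their ligands, the fibronectin receptor rose and the vitronectin receptor was lower at the higher dose. *ITGA5* had 132, 126 and 137 CPM in control, 171, 160 and 157 CPM at 100 µM and 217, 244 and 198 CPM at 200 µM, again with no overlap between groups. It was 1.67-fold higher at 200 µM, with a log2 fold change of 0.74 ± 0.09 (edgeR adjusted p = 0.0003). The 100 µM value was 0.31 ± 0.09 (edgeR adjusted p = 0.025) and was not called with GC correction (0.11), without any one of the 3 control libraries (0.28 to 0.34), or without 100 µM replicate 1 (0.27) or 2 (0.34). *ITGAV*, which pairs with several beta chains and binds latent TGF-beta as well as vitronectin, had 234, 256 and 220 CPM in control, 164, 181 and 206 CPM at 100 µM and 161, 113 and 145 CPM at 200 µM. Both treated groups lay below control. The log2 fold change was -0.76 ± 0.14 (edgeR adjusted p = 0.0024) at 200 µM and -0.37 ± 0.14 (edgeR adjusted p = 0.063) at 100 µM. The 100 µM value was called by DESeq2 (-0.36), with only those 2 groups fitted (-0.36) and without 200 µM replicate 2 (-0.34), while its GC-corrected value was -0.01. The difference of 200 µM from 100 µM, -0.39 ± 0.14 (edgeR adjusted p = 0.041), was not called when any 1 control library (-0.395), 100 µM replicate 2 (-0.425) or 3 (-0.32), or 200 µM replicate 2 (-0.29) was left out.

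*ITGA4* and *ITGA9*, related chains that bind VCAM1, fibronectin and tenascin, were higher at 100 µM and lower at 200 µM. *ITGA4* (ENSG00000115232, chr2:181457202-181536187, plus strand) had 113, 122 and 107 CPM in control, 194, 217 and 219 CPM at 100 µM and 43.5, 32.2 and 56.7 CPM at 200 µM. *ITGA9* (ENSG00000144668, chr3:37452115-37823514, plus strand) had 14.6, 13.4 and 13.6 CPM in control, 45.8, 53.0 and 52.5 CPM at 100 µM and 7.94, 8.12 and 6.43 CPM at 200 µM. In both genes every 100 µM library lay above control and every 200 µM library below it. The log2 fold changes of *ITGA4* were 0.88 ± 0.17 (edgeR adjusted p = 0.0043) at 100 µM and -1.37 ± 0.18 (edgeR adjusted p = 0.0004) at 200 µM. Those of *ITGA9* were 1.87 ± 0.11 (edgeR adjusted p = 9.8e-06) and -0.88 ± 0.12 (edgeR adjusted p = 0.00045) at the same doses. Between the doses, 200 µM was lower than 100 µM by 4.76-fold for *ITGA4* and 6.72-fold for *ITGA9*. Their summed RPKM was 16.1 ± 0.957 in control, 32.7 ± 2.21 at 100 µM and 6.49 ± 1.45 at 200 µM.

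Of the alpha chains named for leukocytes, *ITGAE* and *ITGAX* passed the filter on low counts. *ITGAE*, the E-cadherin receptor of T cells in epithelia, had 36.1, 32.8 and 32.0 CPM in control, 20.8, 23.7 and 23.2 CPM at 100 µM and 25.4, 27.8 and 18.4 CPM at 200 µM. Both doses lay below control, with log2 fold changes of -0.58 ± 0.15 (edgeR adjusted p = 0.014) at 100 µM and -0.49 ± 0.15 (edgeR adjusted p = 0.026) at 200 µM. The first was not called without control replicate 1 or 100 µM replicate 1 (both -0.52). The second was not called without any one of the control libraries (-0.53 to -0.44) or 200 µM replicate 1 (-0.54), and was -0.32 without 200 µM replicate 3. *ITGAX*, a complement receptor chain of myeloid cells, had 1.66, 1.45 and 1.69 CPM in control, 0.417, 0.519 and 0.551 CPM at 100 µM and 1.96, 2.56 and 1.63 CPM at 200 µM. It was lower at 100 µM (-1.68 ± 0.25, edgeR adjusted p = 0.00096), overlapped control at 200 µM (0.36 ± 0.23, edgeR adjusted p = 0.25), and was 4.11-fold higher at 200 µM than at 100 µM. The 8 members that did not pass the filter, *ITGA2B*, *ITGA8*, *ITGAD*, *ITGAL*, *ITGAM*, *ITGB6*, *ITGB7* and *LAMB4*, had 0 to 13 counts in each library and were not tested.

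**Figure D2:**
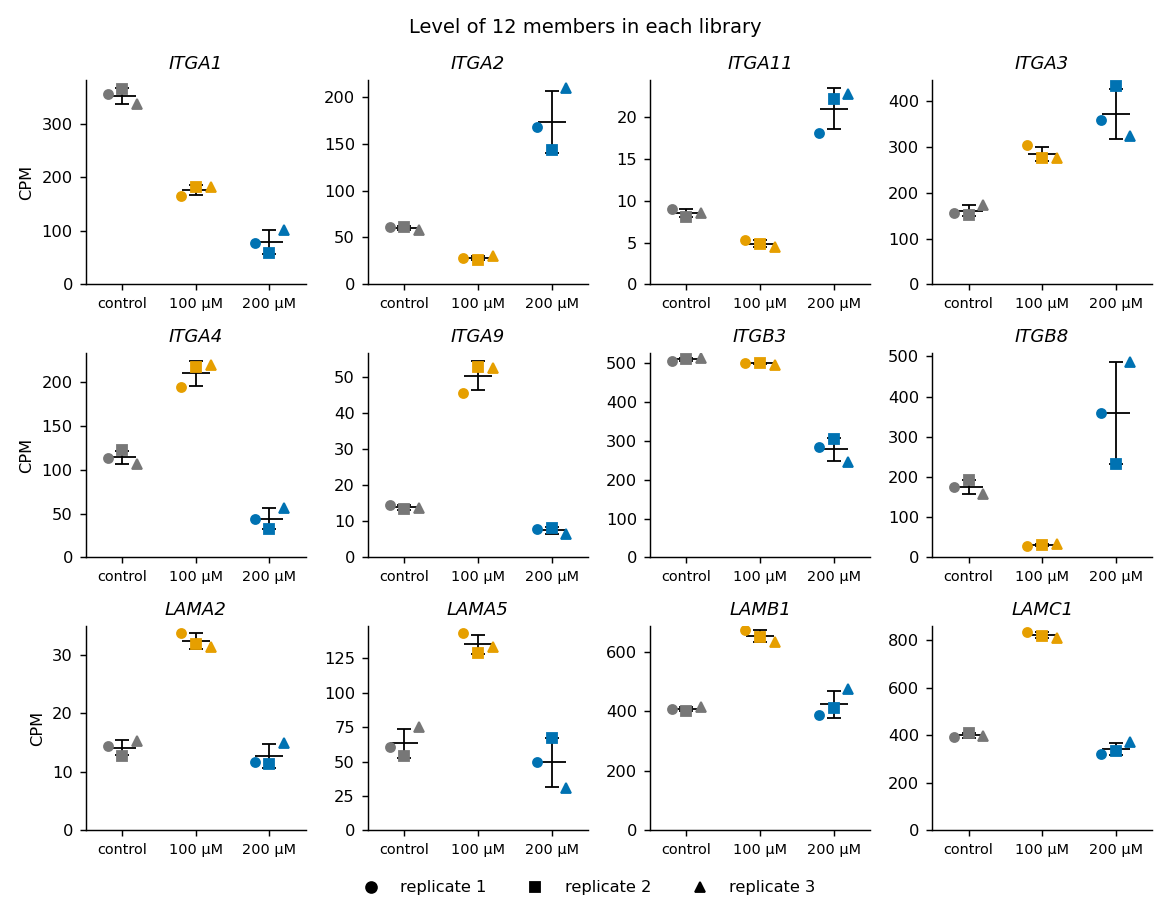
CPM of 12 of the members in each library, by group, with the mean and SD of 3 libraries; marker shapes are replicate numbers. The 100 µM libraries are the lowest for ITGA2, ITGA11 and ITGB8 and the highest for ITGA4, ITGA9, LAMA2, LAMA5, LAMB1 and LAMC1.

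Among the beta chains, *ITGB8* moved most at 100 µM. ITGB8 pairs with ITGAV and presents latent TGF-beta for activation. *ITGB8* (ENSG00000105855, chr7:20330702-20415754, plus strand) had 176, 192 and 158 CPM in control, 27.5, 29.8 and 34.0 CPM at 100 µM and 359, 232 and 486 CPM at 200 µM. The 100 µM libraries lay far below control and the 200 µM libraries above it, though widely spread. On the log2 scale *ITGB8* changed by -2.52 ± 0.24 (edgeR adjusted p = 8.9e-05) at 100 µM, a 5.76-fold decrease, and 1.04 ± 0.23 (edgeR adjusted p = 0.0067) at 200 µM. Between the doses it was 11.8-fold higher at 200 µM than at 100 µM (3.56 ± 0.25, edgeR adjusted p = 8e-06). In the authors' deposited table of 100 features, read here as FPKM, ITGB8 stood at 17.6, 19.6 and 16.2 in control, 2.90, 3.27 and 3.67 at 100 µM and 36.8, 24.1 and 45.0 at 200 µM. Its promoter window, chr7:20330650-20330899 on the plus strand of GRCh38.p14 from RefSeq, is shown because ITGB8 had the largest decrease of any member at 100 µM. The RefSeq start lies downstream of the gene start given above, so most of this window lies inside the gene as given. Capitals again mark SP1, here CCGCCC, which reads GGGCGG on the other strand.
ITGB8: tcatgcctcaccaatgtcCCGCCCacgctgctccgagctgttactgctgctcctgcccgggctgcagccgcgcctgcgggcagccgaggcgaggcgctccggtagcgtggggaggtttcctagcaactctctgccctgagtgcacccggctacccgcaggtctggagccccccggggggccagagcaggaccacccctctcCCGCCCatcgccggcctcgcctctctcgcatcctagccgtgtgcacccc
It held 2 SP1 motifs and none of AP-1, NF-kB or TEAD. *ITGB4*, picked by the same rule, has no entry in the promoter table.

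*ITGB1*, the shared partner of most alpha chains, was lower at both doses. Per length it averaged 141 ± 6.13, 102 ± 2.79 and 107 ± 21.7 RPKM in control, at 100 µM and at 200 µM, where *ITGB3* averaged 116 ± 0.909, 114 ± 0.664 and 63.4 ± 6.56 RPKM. *ITGB1* had 851, 883 and 809 CPM in control, 595, 619 and 628 CPM at 100 µM and 604, 539 and 791 CPM at 200 µM. All treated libraries lay below control, while the doses overlapped each other. The log2 fold change was -0.47 ± 0.13 (edgeR adjusted p = 0.018) at 100 µM and -0.40 ± 0.13 (edgeR adjusted p = 0.035) at 200 µM, and the GC-corrected values were -0.18 and -0.27, both called. The 100 µM value was not called without control replicate 1 or 2 or without any one of the 100 µM libraries (-0.46 to -0.44). The 200 µM value was not called without any one of the control (-0.43 to -0.37) or 100 µM libraries (-0.40 each), without 200 µM replicate 1 (-0.35) or without 200 µM replicate 2 (-0.285). *ITGB3*, the partner of ITGAV and of the platelet chain ITGA2B, had 506, 510 and 514 CPM in control, 502, 500 and 497 CPM at 100 µM and 285, 304 and 247 CPM at 200 µM. Its libraries at 100 µM lay just below control and were not called (-0.03 ± 0.08, edgeR adjusted p = 0.79), except with GC correction (-0.18). At 200 µM it fell 1.83-fold, with a log2 fold change of -0.87 ± 0.08 (edgeR adjusted p = 6.6e-05). ITGB3 shares 51.6% of its exons with AC068234.1 on the same strand, which itself had 0 to 57 counts per library. The level of *ITGB3* per length is therefore uncertain.

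*ITGB5*, another vitronectin receptor chain, had 332, 316 and 339 CPM in control, 377, 369 and 357 CPM at 100 µM and 272, 313 and 185 CPM at 200 µM. Its 100 µM libraries lay above control and its 200 µM libraries below, but neither difference was called (0.16 ± 0.16 and -0.36 ± 0.16). The 100 µM value was called with only those 2 groups fitted (0.17) or without 200 µM replicate 3 (0.18), and turned to -0.03 with GC correction. The 200 µM value was called with GC correction (-0.44) and without 200 µM replicate 2 (-0.53). Without 200 µM replicate 3 it was -0.15 and was not called. Against 100 µM, 200 µM was lower (-0.52 ± 0.16, edgeR adjusted p = 0.026), which was not called without any one of the 100 µM libraries (-0.56 to -0.50) and was -0.34 without 200 µM replicate 3. *ITGB2* and *ITGB4* were near the floor. *ITGB4*, the hemidesmosome chain that pairs with ITGA6, had 0.936, 0.827 and 0.675 CPM in control, 4.30, 3.15 and 4.34 CPM at 100 µM and 1.27, 2.88 and 1.71 CPM at 200 µM. Both doses lay above control and the doses did not overlap. The log2 fold change of *ITGB4* was 2.27 ± 0.32 (edgeR adjusted p = 0.00073) at 100 µM and 1.26 ± 0.32 (edgeR adjusted p = 0.013) at 200 µM, the 200 µM value not called without control replicate 3 (1.145). The difference between 200 µM and 100 µM (-1.01 ± 0.30, edgeR adjusted p = 0.022) was not called without 100 µM replicate 1 (-0.94) or 3 (-0.94) or 200 µM replicate 1 (-0.79). *ITGB2*, the beta chain of leukocytes, had 0.589, 0.930 and 1.28 CPM in control, 2.02, 2.27 and 1.78 CPM at 100 µM and 2.43, 2.49 and 1.59 CPM at 200 µM. Both doses lay above control, at 1.11 ± 0.30 (edgeR adjusted p = 0.019) and 1.21 ± 0.30 (edgeR adjusted p = 0.013). The 100 µM call was lost without control replicate 1 (0.87) or 2 (1.11), or 100 µM replicate 1 (1.11) or 2 (1.04). The leukocyte and platelet markers, at 0.381 to 0.689 CPM in sum in control and 0.357 to 0.803 CPM at 100 µM, were higher in sum at 200 µM (1.51 to 1.70 CPM, with CD14 at 0.477 to 1.31 CPM). Their part in the results of ITGB2 and ITGAX was not tested.

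Laminin genes that rose at 100 µM include LAMC1, LAMB1 and LAMA5, chains of widespread basement membrane laminins. *LAMC1* (ENSG00000135862, chr1:183023460-183145592, plus strand), the gamma chain of most laminins, had 392, 410 and 396 CPM in control, 834, 818 and 809 CPM at 100 µM and 323, 332 and 370 CPM at 200 µM. All 100 µM libraries stood well above control, and all 200 µM libraries slightly below. It was 2.06-fold higher at 100 µM (1.04 ± 0.07, edgeR adjusted p = 1.6e-05). The decrease at 200 µM was small (-0.22 ± 0.07, edgeR adjusted p = 0.033) and was not called without any one of the control (-0.238 to -0.205) or 100 µM libraries (-0.22 each), without 200 µM replicate 1 (-0.18) or without 200 µM replicate 2 (-0.21). The authors' deposited table gave LAMC1 at 44.0, 47.2 and 45.5 in control, 98.7, 97.8 and 97.3 at 100 µM and 37.1, 38.0 and 38.8 at 200 µM, on the scale read as FPKM. *LAMB1* (ENSG00000091136, chr7:107923799-108003255, minus strand), the commonest beta chain, had 407, 400 and 415 CPM in control, 673, 651 and 632 CPM at 100 µM and 387, 411 and 474 CPM at 200 µM. It rose at 100 µM (0.68 ± 0.08, edgeR adjusted p = 0.00036) and overlapped control at 200 µM (0.06 ± 0.08, edgeR adjusted p = 0.62). *LAMB2*, the beta chain of the kidney filter and the neuromuscular junction, had 45.5, 46.4 and 50.8 CPM in control, 99.1, 89.6 and 88.4 CPM at 100 µM and 85.0, 105 and 77.1 CPM at 200 µM. Both doses lay above control and overlapped each other. The log2 fold change of *LAMB2* was 0.96 ± 0.12 (edgeR adjusted p = 0.0004) at 100 µM and 0.91 ± 0.12 (edgeR adjusted p = 0.00046) at 200 µM, and the GC-corrected 100 µM value was 0.62, still called.

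Of the 5 laminin alpha chains, LAMA2 and LAMA5 rose at 100 µM, LAMA1 rose at 200 µM and LAMA4 fell at 200 µM. *LAMA4*, an alpha chain of blood vessel and mesenchymal laminins, had 383, 392 and 391 CPM in control, 377, 376 and 362 CPM at 100 µM and 281, 290 and 338 CPM at 200 µM. It was not called at 100 µM (-0.06 ± 0.08, edgeR adjusted p = 0.56) and was lower at 200 µM (-0.36 ± 0.08, edgeR adjusted p = 0.0072). The difference of 200 µM from 100 µM, -0.30 ± 0.08 (edgeR adjusted p = 0.015), was not called without 100 µM replicate 1 (-0.285). *LAMA5* (ENSG00000130702, chr20:62307955-62367312, minus strand), the main alpha chain of adult basement membranes, had 60.6, 54.0 and 74.9 CPM in control, 143, 129 and 133 CPM at 100 µM and 49.9, 67.0 and 31.1 CPM at 200 µM. The 100 µM libraries lay above all others, and the 200 µM libraries overlapped control. Its log2 fold change was 1.10 ± 0.24 (edgeR adjusted p = 0.0068) at 100 µM, 0.69 with GC correction, and -0.36 ± 0.24 (edgeR adjusted p = 0.27) at 200 µM, where it was called as lower with GC correction (-0.52) and without 200 µM replicate 2 (-0.64). Without 200 µM replicate 3 the 200 µM value of *LAMA5* was -0.1 and was not called. *LAMA2*, the alpha chain of muscle and nerve whose loss causes a congenital muscular dystrophy, had 14.4, 12.7 and 15.2 CPM in control, 33.8, 31.9 and 31.3 CPM at 100 µM and 11.6, 11.4 and 15.0 CPM at 200 µM. It rose 2.29-fold at 100 µM (1.20 ± 0.13, edgeR adjusted p = 0.00018) and overlapped control at 200 µM (-0.16 ± 0.13, edgeR adjusted p = 0.37), where it was called without 200 µM replicate 3 (-0.28). *LAMA1*, an alpha chain of embryonic laminin, had 6.34, 5.37 and 4.52 CPM in control, 4.53, 4.12 and 4.54 CPM at 100 µM and 11.0, 10.8 and 8.82 CPM at 200 µM. It overlapped control at 100 µM (-0.30 ± 0.16, edgeR adjusted p = 0.16) and rose at 200 µM (0.92 ± 0.15, edgeR adjusted p = 0.0018), and 11.1% of its exons overlap AP002409.1 on the opposite strand.

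*LAMA3* and *LAMB3*, chains of epidermal laminin, were weakly expressed. *LAMA3* at 1.95 ± 0.650, 1.54 ± 0.551 and 2.17 ± 0.481 CPM and *LAMB3* at 11.2 ± 1.71, 10.3 ± 0.118 and 8.50 ± 2.79 CPM in control, at 100 µM and at 200 µM were called in no comparison, with overlapping groups. *LAMC3*, a minor gamma chain, had 0.208, 0.413 and 0.405 CPM in control, 0.610, 0.844 and 0.648 CPM at 100 µM and 0.290, 0.320 and 0.238 CPM at 200 µM. It passed the filter only through its 100 µM libraries, since 2 of the control libraries, all 3 at 100 µM and 0 at 200 µM exceeded the cutoff of 0.34 CPM. It therefore had to be high at 100 µM, and its log2 fold changes of 1.02 ± 0.34 at 100 µM against control and -1.29 ± 0.35 at 200 µM against 100 µM are given as a description without a test. Its call at 100 µM was lost in 12 alternatives, with values of 0.63 to 1.18, among them those without any one of the control or 100 µM libraries or without 200 µM replicate 1, and that of 200 µM against 100 µM without 100 µM replicate 2 (-1.155).

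Per length, laminin gamma RNA summed to 48.6 ± 1.18 RPKM in control, 98.4 ± 1.54 at 100 µM and 41.7 ± 2.85 at 200 µM, with *LAMC1* giving 97.8% ± 0.203, 99.2% ± 0.0940 and 97.5% ± 0.504 of it. Laminin beta RNA summed to 59.4 ± 1.65, 95.8 ± 3.36 and 66.9 ± 4.36 RPKM in the same order. Laminin alpha RNA summed to 39.8 ± 0.945, 45.1 ± 1.17 and 31.6 ± 1.93 RPKM. *LAMA4* made up 84.3% ± 1.84 of it in control, 71.2% ± 0.961 at 100 µM and 82.6% ± 4.09 at 200 µM, and *LAMA5* 11.1% ± 1.61, 21.0% ± 0.773 and 11.0% ± 4.21. Beta integrin RNA summed to 320 ± 4.98, 276 ± 0.998 and 235 ± 13.1 RPKM, with the 3 groups apart. *ITGB1* gave 44.1% ± 1.23, 37.0% ± 0.906 and 45.4% ± 6.59 of that sum, and *ITGB3* 36.3% ± 0.765, 41.2% ± 0.354 and 27.2% ± 4.24. Alpha integrin RNA summed to 182 ± 4.39, 195 ± 4.45 and 198 ± 8.46 RPKM, where the 2 doses overlapped. These sums were not tested. With total-count scaling every class kept its direction against control at both doses, while the alpha integrin sum at 200 µM (190 ± 1.63 RPKM) then lay below that at 100 µM (199 ± 5.54 RPKM).

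**Figure D3:**
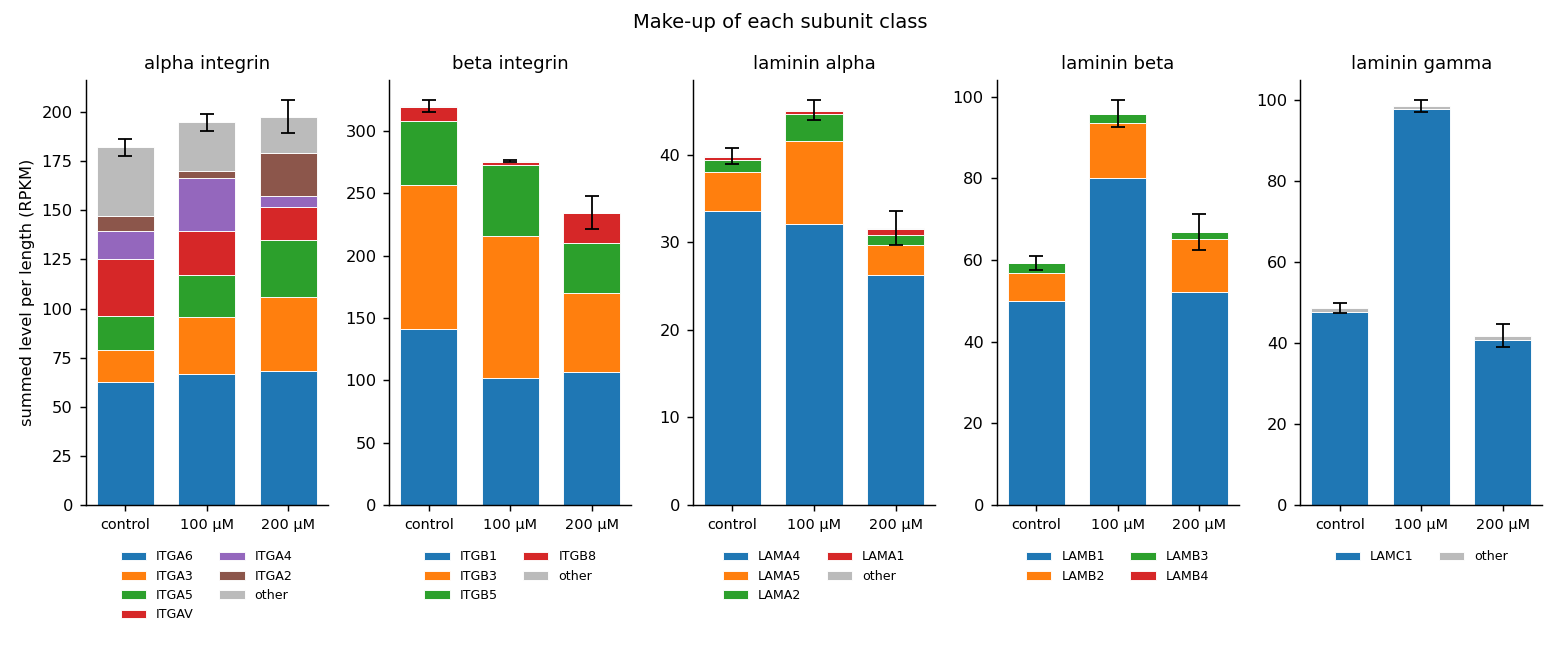
Summed RPKM of each subunit class by group, stacked by gene, with error bars for the SD of the class sum over 3 libraries; each panel has its own axis from 0. Laminin beta and gamma bars are tallest at 100 µM, and beta integrin bars are lower at each dose than in control.

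Genes that work with the members were read from 4 lists drawn up by hand, with the same test and the background shares given above. Those shares are of the main fit and do not apply to the list counts with GC correction or with a library left out. Among basement membrane partners of laminin, 15 of 17 were tested; 12 were higher and 1 lower at 100 µM (median log2 fold change 0.97), and 5 were higher and 3 lower at 200 µM (median 0.26). The counts of higher and lower genes were 10 and 1 at 100 µM and 6 and 4 at 200 µM with GC correction, and 12 and 1 at 100 µM and 8 and 3 at 200 µM without 200 µM replicate 3. *HSPG2*, encoding the proteoglycan perlecan, averaged 20.1 ± 2.33 CPM in control, 93.0 ± 5.63 CPM at 100 µM and 32.3 ± 5.07 CPM at 200 µM, with log2 fold changes of 2.21 ± 0.13 (edgeR adjusted p = 9.8e-06) and 0.69 ± 0.13 (edgeR adjusted p = 0.0034); 11.7% of its exons overlap LDLRAD2. *COL4A2*, a chain of basement membrane collagen, rose at 100 µM (1.57 ± 0.14) and was not called at 200 µM (-0.02 ± 0.14). Its partner *COL4A1* rose at 100 µM (1.19 ± 0.11) and fell at 200 µM (-0.45 ± 0.11). *NID1*, the nidogen that links laminin to collagen, rose at both doses (1.37 ± 0.11 at 100 µM and 0.74 ± 0.11 at 200 µM). *NID2* rose at 100 µM (1.87 ± 0.36), was not called at 200 µM (0.67 ± 0.37) and shares 30.0% of its exons with RTRAF. *COL15A1* was lower at 100 µM (-0.99 ± 0.19) and higher at 200 µM (1.05 ± 0.18). *COL4A5* (0.55 ± 0.18 at 100 µM and -1.58 ± 0.19 at 200 µM) and the matrix peroxidase *PXDN* (1.01 ± 0.09 at 100 µM and -0.49 ± 0.09 at 200 µM) rose at 100 µM and fell at 200 µM. At 200 µM against 100 µM, 1 was higher and 8 lower (median -0.76), with 2 higher under GC correction or without 200 µM replicate 3.

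Among integrin ligands other than laminins, 18 of 26 were tested; 11 were higher and 3 lower at 100 µM (median log2 fold change 0.85), and 6 were higher and 4 lower at 200 µM (median 0.20). The counts were 9 and 4 at 100 µM and 5 and 5 at 200 µM with GC correction, and 11 and 5 at 100 µM and 8 and 4 at 200 µM without 200 µM replicate 3. Leaving out any one of the control libraries or 200 µM replicate 1 left 2 called lower at 200 µM. *THBS1*, encoding thrombospondin, averaged 54.4 ± 0.420 CPM in control, 354 ± 7.11 CPM at 100 µM and 347 ± 3.84 CPM at 200 µM, and its log2 fold change was 2.70 ± 0.06 (edgeR adjusted p = 3.7e-08) at 100 µM and 2.68 ± 0.06 (edgeR adjusted p = 1.2e-07) at 200 µM. The matricellular *CCN2* rose at both doses (1.83 ± 0.09 and 2.26 ± 0.09), and the related *CCN1* rose at both as well (1.13 ± 0.08 at 100 µM and 2.72 ± 0.09 at 200 µM). *COL1A1*, a fibrillar collagen chain, rose at 100 µM (2.70 ± 0.50) at a low level, 2.84 ± 0.498 CPM against 0.436 ± 0.148 CPM in control. *ICAM1*, the ligand of leukocyte integrins, fell at both doses (-0.99 ± 0.09 at 100 µM and -0.31 ± 0.09 at 200 µM; 23.6% of exons shared with AC011511.5). The ITGAV ligands *MFGE8* (-0.80 ± 0.15) and *EDIL3* (-0.69 ± 0.17; -0.32 with GC correction) fell at 100 µM. *TGFB3* (-0.67 ± 0.14) and osteopontin, *SPP1* (-0.36 ± 0.13), fell at 200 µM, the last not called in 13 alternatives (-0.40 to -0.27), among them those without any one of the control or 100 µM libraries or without 200 µM replicate 1 or 2. COL4A1 and COL4A2 belong to both this list and the basement membrane list. COL1A1 is also 1 of 8 fibroblast markers, whose sum was 47.4 to 51.2 CPM in control, 73.9 to 77.6 CPM at 100 µM and 41.5 to 45.3 CPM at 200 µM, with COL1A2 and COL3A1 at or near 0 in every library. At 100 µM the markers DCN, LUM, PDGFRA, PDGFRB and COL1A1 lay above control. FAP lay below it, at 10.0 to 11.0 CPM against 18.4 to 20.1 CPM in control. The part of the fibroblast markers in the results of either matrix list was not tested.

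Among 32 integrin activators and adhesion adaptors, all tested, 16 were higher and 3 lower at 100 µM (median log2 fold change 0.44), and 13 were higher and 5 lower at 200 µM (median 0.29). The counts were 15 and 4 at 100 µM and 14 and 7 at 200 µM with GC correction, and 21 and 3 at 100 µM and 18 and 5 at 200 µM without 200 µM replicate 3. At 200 µM, 8 were called higher without control replicate 1, 2 were called lower without any one of the control libraries, and 3 were called lower without 100 µM replicate 2 or 3 or without 200 µM replicate 1. *TNS1* and *TNS2*, encoding tensins that bind beta chain tails and actin, rose at 100 µM (1.87 ± 0.30 and 1.48 ± 0.10), and *TNS1* also at 200 µM (1.56 ± 0.30), at a level of at most 2.31 ± 0.227 CPM. *LIMS2*, a partner of the integrin-linked kinase, stood at 0.171 ± 0.149 CPM in control, 0.808 ± 0.0588 CPM at 100 µM and 0.564 ± 0.15 CPM at 200 µM. Its control mean was under the filter's cutoff of 0.34 CPM, so it passed the filter through its treated libraries. The log2 fold change of *LIMS2* at 100 µM, 2.21 ± 0.64, is therefore given as a description without a test. It is among the 16 adaptors counted as higher at 100 µM. That call was lost without control replicate 1 (2.53) or any one of the 100 µM libraries (2.17 to 2.25). *KANK1*, a talin-binding protein of the adhesion rim, averaged 72.7 ± 2.91 CPM in control, 62.4 ± 2.03 CPM at 100 µM and 193 ± 5.95 CPM at 200 µM, and rose at 200 µM (1.41 ± 0.07, edgeR adjusted p = 2.6e-06). Its small decrease at 100 µM (-0.22 ± 0.07) was not called in 10 alternatives (-0.25 to -0.15), among them those without any one of the control or 100 µM libraries or without 200 µM replicate 1. *ZYX*, encoding zyxin, rose at both doses (1.09 ± 0.14 at 100 µM and 0.85 ± 0.14 at 200 µM), and the kindlin *FERMT1* fell at both (-0.58 ± 0.10 at 100 µM and -0.33 ± 0.10 at 200 µM). *ITGB1BP1*, which binds the ITGB1 tail, fell at both doses (-0.39 ± 0.07 at 100 µM and -0.20 ± 0.07 at 200 µM), with the 100 µM value at -0.23 and not called with GC correction, and 33.1% of its exons overlap ASAP2. At 200 µM *ILK* (-0.43 ± 0.09; 78.5% of exons overlap TAF10), *TLN2* (-0.42 ± 0.10) and the focal adhesion kinase relative *PTK2B* (-0.56 ± 0.18) fell. The *PTK2B* value was not called in 10 alternatives (-0.62 to -0.47), among them those without any one of the control libraries, 100 µM replicate 2 or 3, or 200 µM replicate 2 or 3. At 200 µM against 100 µM, 2 adaptors were higher and 11 lower; the counts were 4 and 13 with GC correction and 5 and 15 without 200 µM replicate 3, while 1 was higher without replicate 1 of either dose and 4 without 200 µM replicate 2.

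Among 20 other laminin receptors and tetraspanins, all tested, 6 were higher and 5 lower at 100 µM (median log2 fold change -0.08), and 4 were higher and 4 lower at 200 µM (median -0.01). The counts were 6 and 7 at 100 µM and 5 and 6 at 200 µM with GC correction, and 8 and 6 at 100 µM and 9 and 4 at 200 µM without 200 µM replicate 3. Leaving out any one of the control libraries left 2 called higher and 2 lower at 200 µM, and leaving out 200 µM replicate 1 left 2 lower. *DAG1*, encoding dystroglycan, the laminin receptor of muscle and epithelium, was 138 ± 4.67 CPM in control, 278 ± 2.70 CPM at 100 µM and 284 ± 11.5 CPM at 200 µM, higher at both doses (1.02 ± 0.07, edgeR adjusted p = 1.3e-05, and 1.05 ± 0.07, edgeR adjusted p = 7.9e-06). *BCAM*, an immunoglobulin-family receptor of LAMA5, rose at 100 µM (1.47 ± 0.16), as did the syndecan *SDC1* (1.06 ± 0.25). *SDC4*, the syndecan of focal adhesions (-1.84 ± 0.26), and the integrin-associated tetraspanins *CD9* (-1.07 ± 0.10) and *CD63* (-0.78 ± 0.11) fell at 100 µM. *PLEC*, encoding plectin, which ties ITGB4 to keratin, rose at both doses (0.88 ± 0.16 at 100 µM and 0.88 ± 0.16 at 200 µM), and *SDC2* fell at both (-0.55 ± 0.12 at 100 µM and -1.59 ± 0.13 at 200 µM). The sarcoglycan genes *SGCD* (0.46 ± 0.13) and *SGCA* (-0.75 ± 0.23) were each called at 200 µM and each lost the call without any one of the control libraries, with values of 0.40 to 0.49 for *SGCD* and -0.77 to -0.74 for *SGCA*. The *SGCA* call was also lost without 200 µM replicate 1 (-0.82) or 100 µM replicate 2 or 3 (both -0.75).

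**Figure D4:**
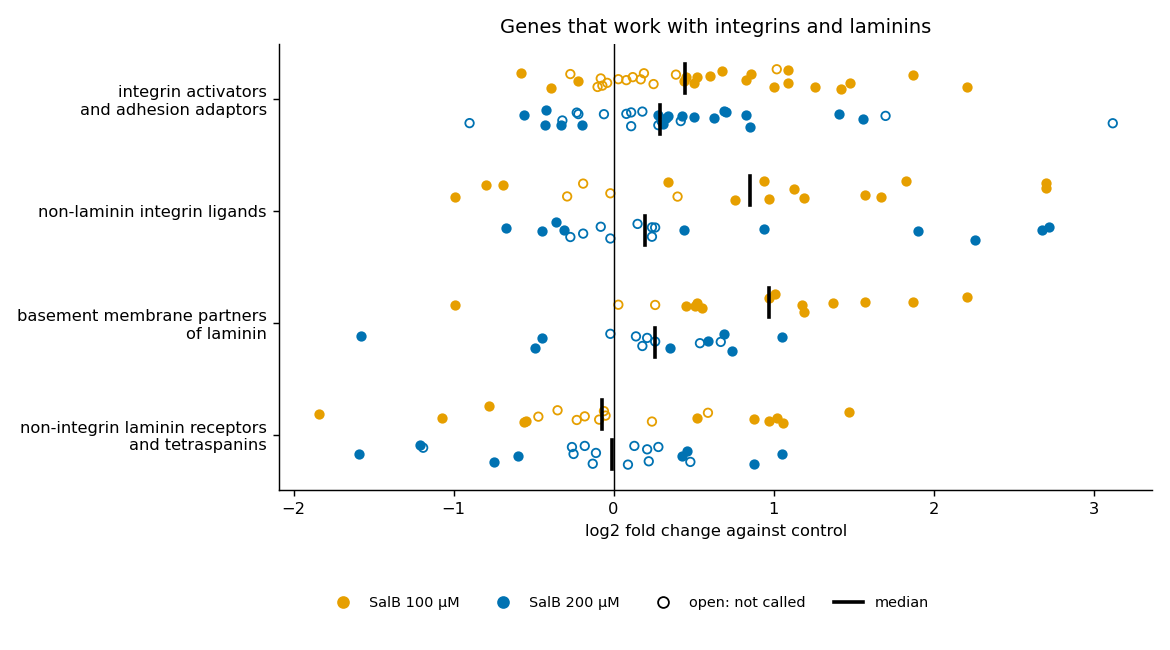
Log2 fold change against control of every tested gene of the 4 lists, with 100 µM above 200 µM in each list, open circles for genes not called at an adjusted p of 0.05 and a bar at the median. At 100 µM the medians are 0.44 for adaptors, 0.85 for ligands, 0.97 for basement membrane partners and -0.08 for receptors and tetraspanins.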

How the data were processed

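Poly-A selected RNA of 9 A375 libraries was sequenced in pairs on an Illumina instrument, per the labels' protocols. The authors deposited whole-number read counts per gene without normalization, and a table of 100 features whose unit, taken here as FPKM, was inferred from the values: the length implied by counts and deposited values was a median 0.804 of the exon length over 98 features. The submitters' processing notes name HISAT2, featureCounts, DESeq2 and FastQC and the build GRCh38; their versions, the annotation and the strand setting are not stated in the sources used. Genes that overlap can therefore share reads; apart from ITGB3 and LAMA1, tested members shared at most 7.59% of their exons.

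From the counts, edgeR 4.0.16 in R 4.3.3 was run on the 20463 annotated genes, leaving out 2142 assembled transcripts (1.25% to 1.41% of counts), with filterByExpr, TMM scaling and a robust quasi-likelihood fit to all 9 libraries (6 residual degrees of freedom). P-values were adjusted by Benjamini-Hochberg over 13968 genes per comparison. SE is the absolute log2 fold change over the root of its F value. CPM uses TMM-scaled library sizes, and RPKM divides CPM by GENCODE v29 exon length. Replicate pairs of a group differed beyond sampling noise, and intervals and SDs from 3 libraries are imprecise for low counts. GC correction removed a loess trend (span 0.5) of each library on GC content, known for 99.3% of genes. DESeq2 1.42.0 was an alternative.

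Of the tested members and list genes, 1 each is not reported here, though counts and sums include them. The other members are accounted for: those called in any comparison with every library, the others by level or count range. From each list, up to 3 called genes with the largest positive and negative log2 fold change at each dose were named; promoters are of the members with the largest called change each way at each dose, with sequences from the RefSeq table on GRCh38.p14. Members and lists were chosen with earlier results of these data known.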

Additional observations from a re-analysis of the deposited data

How the results depend on the processing

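Of 1346 recomputed log2 fold changes for 75 pairs of a called member and a comparison, 1238 kept their direction and side of the threshold, 78 lost the call, 16 gained one and 14 changed sign, none of them a called value. Changed signs at 100 µM were those of ITGB3 (0.035) and LAMA4 (0.000) under total-count scaling and ITGB5 (-0.029) with GC correction. At 200 µM they were LAMB1 with GC correction (-0.001) or without 200 µM replicate 3 (-0.016); leaving out 1 library gave -0.016 to 0.120 for LAMB1. For 200 µM against 100 µM they were ITGAE without 200 µM replicate 2 (-0.069), LAMB2 with GC correction (0.172), without 100 µM replicate 1 (0.001) or without 200 µM replicate 3 (0.033), ITGB1 under total-count scaling (-0.024), with GC correction (-0.086) or without 200 µM replicate 3 (-0.113), and ITGB2 without 200 µM replicate 1 (-0.001) or 2 (-0.035). Leaving out 1 library gave -0.069 to 0.229 for ITGAE, -0.215 to 0.033 for LAMB2, -0.113 to 0.156 for ITGB1 and -0.035 to 0.271 for ITGB2. The causes were not tested.

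All genes called at 100 µM against control numbered 5181, and 8417 when only those 2 groups were fitted; leaving out 1 library gave 3469 to 7943, the highest without 200 µM replicate 3. At 200 µM against control, leaving out 1 library gave 3719 to 7614 in place of 5211, and for 200 µM against 100 µM 4813 to 7668 in place of 6196. Counts of members called stayed within 1.5 times their value under each alternative. With only the 2 groups compared, calls were lost by ITGAE, ITGB1 and LAMC1 at 200 µM and by ITGAV, LAMA4 and ITGB5 between the doses, and gained by ITGAV (-0.357) and ITGB5 (0.17) at 100 µM.

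Same-numbered libraries showed no clear shared deviation between groups, with correlations of -0.163 to 0.0273. These values do not tell whether the replicates were paired in the experiment. With a replicate block, 4264, 4369 and 5404 genes were called in the 3 comparisons in place of 5181, 5211 and 6196; the counts of higher and lower members were 10 and 9 at 100 µM, 9 and 7 at 200 µM and 8 and 12 between the doses. Calls lost with the block were those of ITGA5 and LAMC3 at 100 µM, ITGB1 and LAMC1 at 200 µM and ITGAV between the doses. Alternatives for the lists were added after the data were seen; of 791 recomputed values of named list genes 741 kept the call and 50 lost it. Members under 1 CPM, and those of 0 to 13 counts, are limited by depth.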
